A study of Homo sapiens with 24 samples.

Results

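The genes described here encode the aminoacyl-tRNA synthetases, chosen by function and by symbol: 20 enzymes of the cytosol, with symbols of the form AARS or FARSA, and 16 enzymes of mitochondria, with symbols ending in ARS2. The 36 genes were followed among 16742 genes listed over 4 mRNA sequencing comparisons of aneuploid human cell lines with the lines they came from. HCT116 is a colorectal carcinoma line with a modal number of 45 chromosomes, and RPE1 hTERT is a retinal pigment epithelial line immortalised with telomerase, with a modal number of 46. HCT116 5/4 carried 4 copies of chromosome 5 and was compared with HCT116, whereas HCT116* 8/3 c7 carried 3 copies of chromosome 8 and was compared with HCT116*, the asterisk marking stable expression of histone H2B fused to GFP. RPE1 5/3 12/3 carried 3 copies of chromosomes 5 and 12 and was compared with RPE1, whereas RPE1* 21/3 carried 3 copies of chromosome 21 and was compared with RPE1*. The additional chromosomes were introduced by microcell-mediated transfer, except that HCT116 5/4 was obtained from another laboratory and that the gain of chromosome 12 was spontaneous; c7 denotes a clone grown from a single cell, so that this line stands for 1 clone. Each of the 8 groups had 3 libraries, all grown in DMEM with fetal calf serum, and no library entered more than 1 comparison. No separate cultures are named for the libraries, so the p-values measure the spread between these libraries, which may be technical.

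Each table gave for every gene the mean normalized count over the 6 libraries, the log2 fold change of the aneuploid line against its parental line with its standard error (SE), and the adjusted p. Counts of single libraries were not analysed here, so spread is given by the SE and no library could be left out. A gene was called changed where its mean reached 10, its adjusted p was under 0.05 and its log2 fold change exceeded 0.6 in size. All 36 synthetase genes were listed with a mean of at least 10 in all 4 tables, from 94.8 for PARS2 in the table of RPE1* 21/3 to 9487 for IARS in that of HCT116* 8/3 c7. The tables of HCT116 and RPE1 origin differed in their markers: EPCAM and CDH1, epithelial adhesion genes, had means of 1685 to 5683 in the former, whereas CDH1 was not listed and EPCAM reached at most 4.77 in the latter. Among 7 pigment epithelial genes, OTX2 (419 to 715) and MITF (1124 to 1439) were high in the RPE1 tables, but RPE65 was at 4.58 to 10.4 and TYR was not listed; RPE65 was higher, at 194 to 287, in the tables of HCT116 origin. Of other intestinal markers, CDX2 (337 to 392) and KRT20 (40.7 to 51.0) were listed only in the tables of HCT116 origin. VIL1 and CEACAM5 were not listed in any table. BEST1 was higher in the RPE1 tables (41.3 to 42.7, against 2.62 to 7.50), and RLBP1 was listed only there (4.77 to 32.4). PMEL was higher in the tables of HCT116 origin (97.1 to 137, against 14.8 to 17.8). The mesenchymal genes VIM, CDH2 and FN1 were far higher in the RPE1 tables, with VIM at 110087 to 175391 against 106 to 481. The libraries are bulk RNA, in which fewer cells expressing a gene and less RNA per cell cannot be told apart.

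Aminoacyl-tRNA synthetases join each amino acid to its tRNA and so supply the substrates of translation. Most amino acids have a nuclear gene for the cytosolic enzyme and a separate nuclear gene for the enzyme imported into mitochondria, where mitochondrially encoded proteins of the respiratory chain are made. GARS and KARS encode both forms of their enzymes from 1 gene, and EPRS joins the glutamyl and prolyl activities in 1 protein; they are counted as cytosolic here. Several cytosolic enzymes assemble into the multisynthetase complex, and a subset of the cytosolic genes is widely described as induced by ATF4, the transcription factor of the amino acid response.

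The cytosolic mRNAs were more abundant than the mitochondrial ones in every table. Divided by the length of the longest protein-coding transcript, the median level of the cytosolic genes was 1331 normalized counts per kilobase in the table of HCT116 5/4, against 183 for the mitochondrial genes, a ratio of 7.26. The ratio was 6.78 in the table of HCT116* 8/3 c7, 6.49 in that of RPE1 5/3 12/3 and 8.3 in that of RPE1* 21/3. With the median transcript length in place of the longest, the 4 ratios lay between 7.61 and 10.4. TARS, the threonyl enzyme, had the highest level per kilobase in the table of HCT116 5/4 (3332), QARS, the glutaminyl enzyme, in those of HCT116* 8/3 c7 (2318) and RPE1 5/3 12/3 (1873), and GARS, the glycyl enzyme, in that of RPE1* 21/3 (2304). Each level is a mean over the aneuploid and the parental libraries. TARS lies on chromosome 5, gained in HCT116 5/4, so its rank there was not free of the gain. The distributions overlapped. IARS2, the mitochondrial isoleucyl enzyme, had the highest level of its compartment in all 4 tables (824 to 1264 per kilobase), and 5 or 6 mitochondrial genes exceeded the lowest cytosolic gene. That gene was FARSB, the beta subunit of the phenylalanyl enzyme (151 to 322 per kilobase), whose annotated transcript of 6761 bases was long. The lowest mitochondrial levels were those of AARS2, WARS2, MARS2 and PARS2, 1 in each table, at 38.2 to 76.5 per kilobase.

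**Figure D1:**
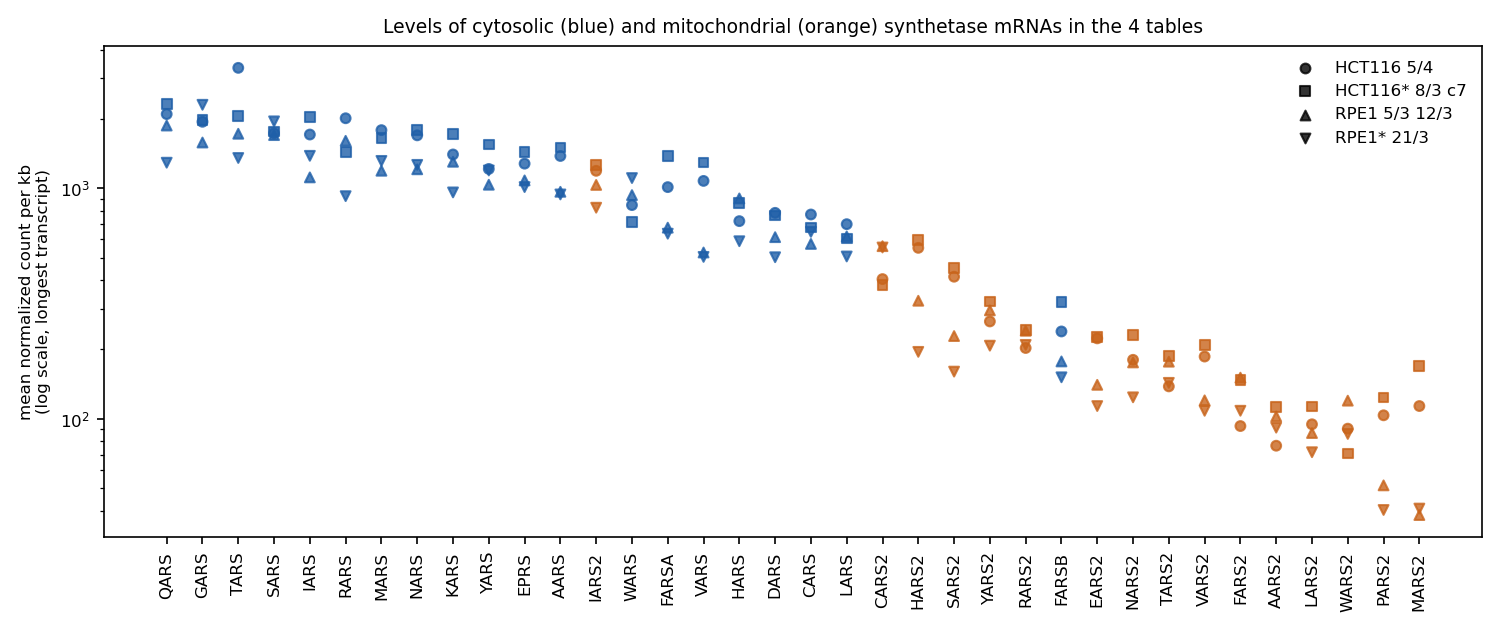
Level of the 36 synthetase mRNAs in each of the 4 tables, as the mean normalized count per kilobase of the longest transcript on a log axis, with genes ordered by their median over the tables. Cytosolic genes (blue) fill most of the left side, IARS2 is the only mitochondrial gene (orange) among them, and FARSB is the only cytosolic gene on the right.

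In HCT116 5/4, 7 of the 36 synthetase genes were called, 4 higher and 3 lower. This was 19.4%, near the 20.6% of all tested genes called in this line (10.8% higher and 9.83% lower). RARS, the arginyl enzyme, and TARS were higher by log2 fold changes of 1.12 (SE 0.23, adjusted p = 1.2e-05) and 1.13 (SE 0.26, adjusted p = 0.000121), and both lie on the gained chromosome 5. WARS, the tryptophanyl enzyme on chromosome 14, and FARS2, the mitochondrial phenylalanyl enzyme on chromosome 6, were higher by 0.82 each (SE 0.28 and 0.25, adjusted p = 0.0179 and 0.0068). The 3 genes that were lower were VARS, the cytosolic valyl enzyme (-0.80, SE 0.23, adjusted p = 0.00481), MARS2, the mitochondrial methionyl enzyme (-0.83, SE 0.23, adjusted p = 0.00263), and NARS2, the mitochondrial asparaginyl enzyme (-0.71, SE 0.22, adjusted p = 0.00746). The remaining 29 genes were not called, including PARS2 and AARS2 at -0.48 each and LARS2, whose value was 0.00 with an SE of 0.19.

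In RPE1 5/3 12/3, 4 synthetase genes were called, all higher and all on chromosome 5. This was 11.1% of the members, against 16.6% of all tested genes called in either direction, 8.13% higher and 8.47% lower. RARS was higher by 0.80 (SE 0.18, adjusted p = 0.000108), TARS by 0.73 (SE 0.18, adjusted p = 0.000558), HARS, the cytosolic histidyl enzyme, by 0.68 (SE 0.19, adjusted p = 0.00288) and HARS2, the mitochondrial histidyl enzyme, by 0.60 (SE 0.17, adjusted p = 0.00279). HARS2 stood just above the fold threshold. LARS, the leucyl enzyme, had an adjusted p of 0.00917 but a log2 fold change of 0.51 (SE 0.16), below it. The lowest values in this line were -0.36 for PARS2 (SE 0.24, adjusted p = 0.344) and -0.27 for YARS, the tyrosyl enzyme (SE 0.18, adjusted p = 0.372).

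No synthetase gene was called in HCT116* 8/3 c7 or in RPE1* 21/3 by the deposited DESeq2 test. In these lines 1.8% and 3.31% of all tested genes were called (0.945% higher and 0.858% lower, and 1.66% higher and 1.65% lower, respectively). At an unadjusted p under 0.05, 1 member passed in HCT116* 8/3 c7, MARS at 0.30 (SE 0.14, adjusted p = 0.482), and 0 in RPE1* 21/3. The members spanned -0.19 (QARS, SE 0.12) to 0.30 (MARS) in HCT116* 8/3 c7 and -0.36 (QARS, SE 0.23) to 0.30 (WARS, SE 0.29) in RPE1* 21/3. No member lies on chromosome 8 or chromosome 21, so neither line carried an additional copy of a synthetase gene from its named gain.

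**Figure D2:**
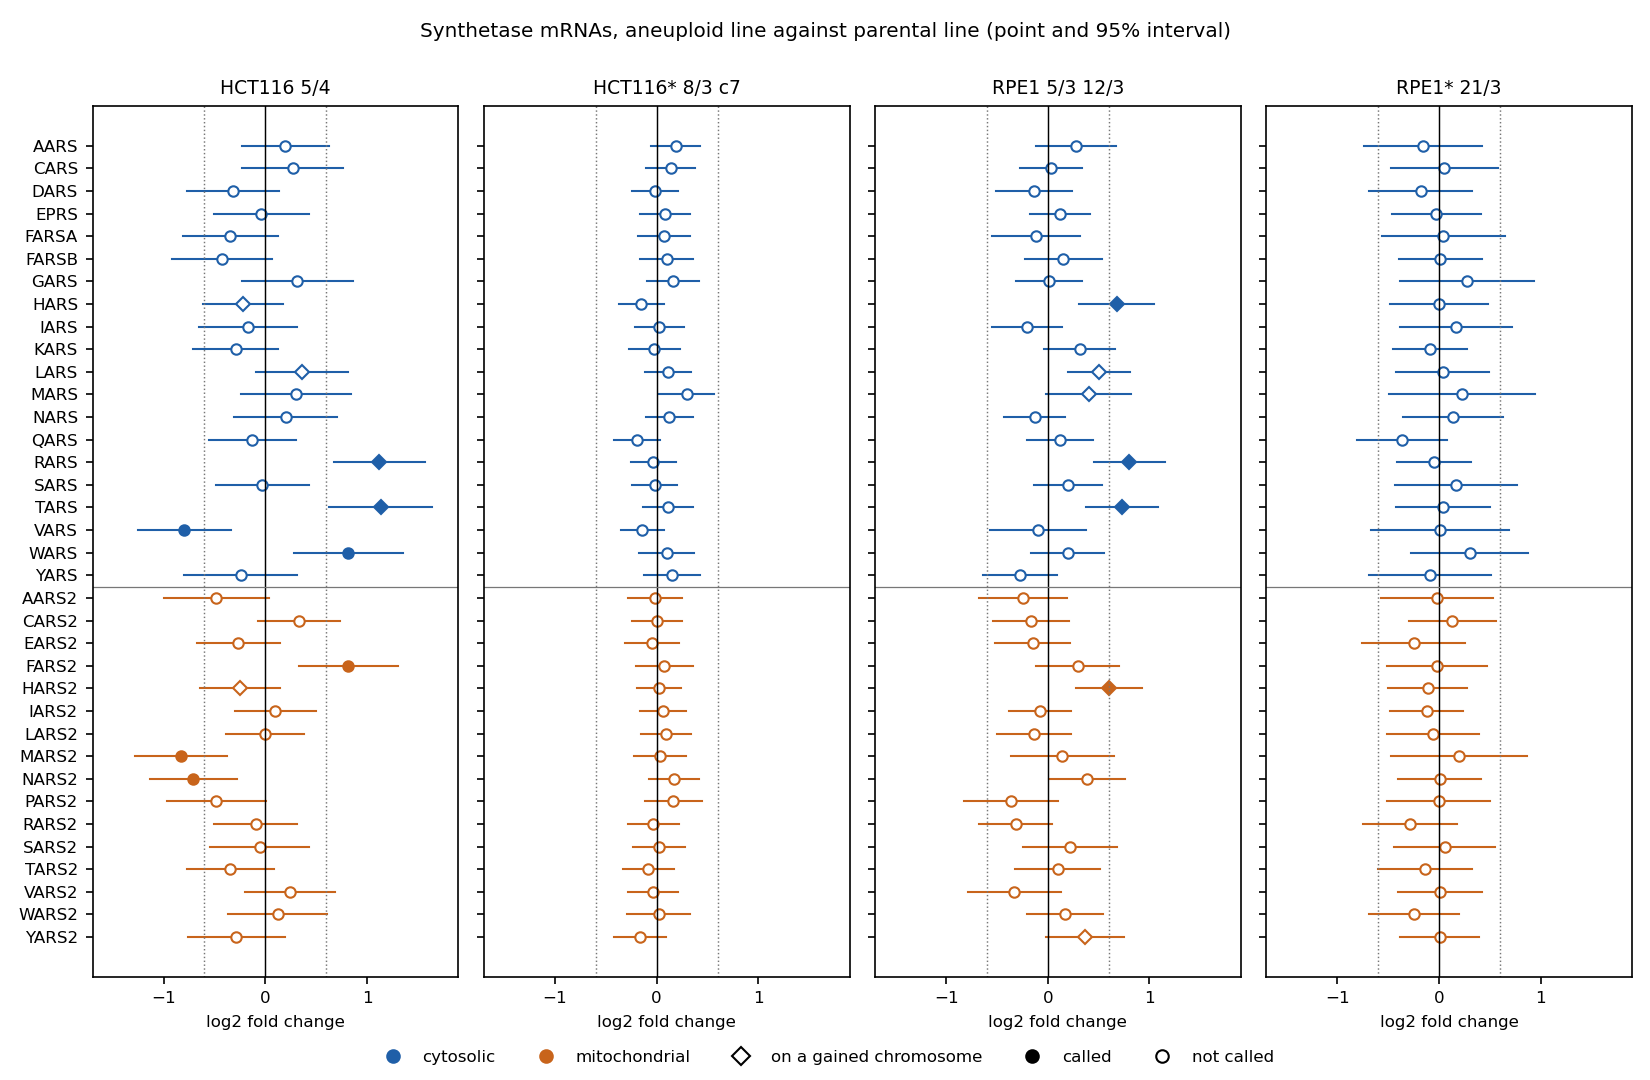
Log2 fold change of each synthetase gene (rows) in the 4 lines (panels), with 95% intervals from the SE and dotted lines at the fold threshold of 0.6. Called genes (filled) are 7 in HCT116 5/4 and 4 in RPE1 5/3 12/3; diamonds mark members on a chromosome gained in that line, which include all 4 calls of RPE1 5/3 12/3 and 2 of the 7 in HCT116 5/4.

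The 5 members on chromosome 5 allowed the same genes to be followed at 4 copies in HCT116 5/4 and at 3 copies in RPE1 5/3 12/3. RARS and TARS were called higher in both lines, LARS had positive values but was not called, and HARS and HARS2 were called higher in the RPE1 line and not in HCT116 5/4. A change in proportion to gene copies would give a log2 fold change of 1 for 4 against 2 copies and of 0.585 for 3 against 2. The genes of chromosome 5 had a median of 0.79 in HCT116 5/4 (619 genes, quartiles 0.13 and 1.32), and 55.4% of them were called higher. The median was 0.53 in RPE1 5/3 12/3 (620 genes), and 37.4% were called higher.

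RARS had implied group means of 2690 normalized counts in HCT116 and 5858 in HCT116 5/4, and of 2485 in RPE1 and 4337 in RPE1 5/3 12/3. TARS had 5575 and 12232 in the HCT116 pair, and 3466 and 5754 in the RPE1 pair. Both genes stood in the upper part of their chromosome: 68.7% and 69.1% of chromosome 5 genes were lower in HCT116 5/4, and 74.8% and 71.5% in RPE1 5/3 12/3. The changes of RARS and TARS did not differ between the 2 lines beyond their errors, with differences of 0.32 (95% interval -0.25 to 0.89) and 0.40 (-0.21 to 1.02). LARS was at 0.36 in HCT116 5/4 (SE 0.23, adjusted p = 0.301), with an interval of -0.09 to 0.81 that stayed below 1. The LARS values of the 2 lines differed by -0.14 (95% interval -0.69 to 0.40), which leaves room for a difference in either direction.

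In the lines without a gain of chromosome 5, none of these 5 genes was called. In HCT116* 8/3 c7 they lay between -0.15 (HARS) and 0.11 (LARS), and in RPE1* 21/3 between -0.11 (HARS2) and 0.04 (TARS). The increase of RARS in RPE1 5/3 12/3 exceeded its value in RPE1* 21/3 by 0.85 (SE 0.26, adjusted p = 0.0149), the 1 difference called among 36 members in that pair of lines, where 9.32% of all genes differed. HARS, TARS and HARS2 exceeded theirs by 0.68 to 0.71, with adjusted p from 0.0573 to 0.179, and HARS2 passed (adjusted p = 0.0437) when fold changes were centred on genes outside the gained chromosomes.

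**Figure D3:**
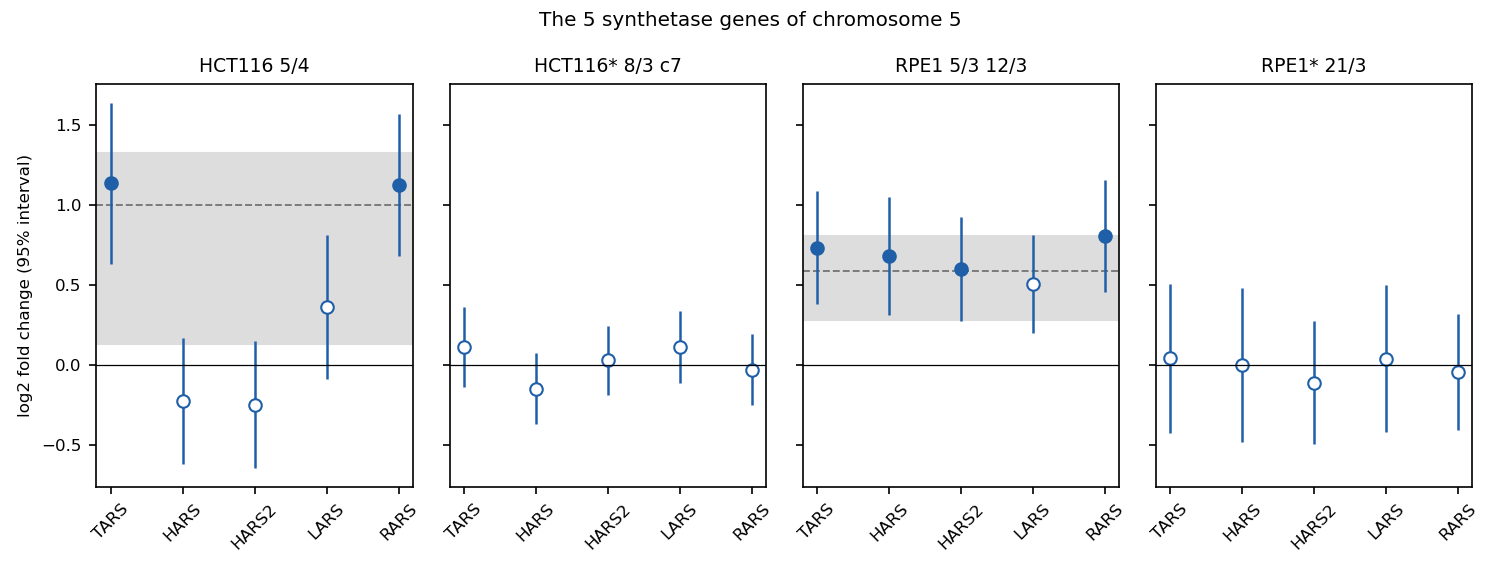
The 5 synthetase genes of chromosome 5 in the 4 lines: points are log2 fold changes and bars 95% intervals, and filled points are called genes. Grey bands give the quartiles of all chromosome 5 genes and dashed lines the log2 copy ratio in the 2 lines with the gain; in HCT116 5/4 the intervals of HARS and HARS2 lie wholly below the dashed line at 1.

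HARS and HARS2 lay below 0 in HCT116 5/4, as did 127 of the 619 genes of chromosome 5 (20.5%), whose median was 0.79. HARS had implied means of 2133 in HCT116 and 1826 in HCT116 5/4, a log2 fold change of -0.22 (SE 0.20, adjusted p = 0.505), and HARS2 had 1490 and 1253, a log2 fold change of -0.25 (SE 0.20, adjusted p = 0.448). Their 95% intervals ended at 0.17 and 0.15, below the 1 that proportion to 4 copies would give. The same genes in RPE1 5/3 12/3 went from 1908 to 3058 and from 643 to 974. The difference between the 2 lines was -0.90 for HARS (SE 0.28, adjusted p = 0.00848) and -0.85 for HARS2 (SE 0.26, adjusted p = 0.00933), in a comparison where 18.5% of all genes tested differed. In HCT116 5/4, 12.9% of chromosome 5 genes were lower than HARS and 12.28% lower than HARS2, against 66.0% and 58.7% in RPE1 5/3 12/3.

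The 2 histidyl genes are arranged head to head. In GRCh37, the build of the alignments, HARS lies on the minus strand at chr5:140052620-140071122 and HARS2 on the plus strand at chr5:140071015-140078890, and exons of the 2 genes share 86 bases in the annotation (2.58% of HARS and 3.07% of HARS2 exon bases). In the RefSeq annotation of GRCh38.p14 the first bases of the transcripts are 85 bases apart and point away from each other. The stretch between them is shown because it separates the starts of 2 genes whose values lay close together in each line that gained chromosome 5; it is read on the plus strand at chr5:140691363-140691462, with the 84 bases between the 2 first bases in capitals (GC content 59.5%) and the first 8 bases of each gene in lower case.
HARS-HARS2: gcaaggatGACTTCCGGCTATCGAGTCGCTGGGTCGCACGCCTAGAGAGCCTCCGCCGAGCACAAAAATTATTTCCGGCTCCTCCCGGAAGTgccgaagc

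The low values were shared by the genes beside the histidyl pair in HCT116 5/4. These neighbours were singled out after their values were seen, so their contrast with the other genes was partly set by the choice. It is given as a description only. From TMCO6 to ZMAT2, 7 genes in 67.3 kb (GRCh37 chr5:140019020-140086271) had log2 fold changes between -0.25 and 0.36: TMCO6 at 0.02, IK at 0.08, WDR55 at -0.02, DND1 at -0.16, HARS at -0.22, HARS2 at -0.25 and ZMAT2 at 0.36. Their median was -0.02, and 0 of the 7 were called. The other 12 genes within 500 kb with a mean of at least 10 ranged from 0.42 to 4.81 with a median of 1.13, and 10 of them were called. They included NDUFA2 at 0.83, a called gene on the opposite strand from TMCO6. Its span holds TMCO6 and so overlaps the stretch, although it is counted outside the 7. High and low genes were thus interleaved at that edge. The 7 genes in RPE1 5/3 12/3 lay between 0.16 and 0.68 with a median of 0.59, and 3 were called. The 16 other genes there ranged from -5.68 to 2.80 with a median of 0.72, and 11 were called. The difference between the lines was called for HARS and HARS2 but not for the other 5 genes of the stretch (adjusted p from 0.093 for IK to 0.895 for ZMAT2). HARS shares 176 exon bases with DND1 and HARS2 shares 152 with ZMAT2 on the same strand, so these values are not fully separate measurements. The number of copies of this stretch in HCT116 5/4 was not measured here.

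**Figure D4:**
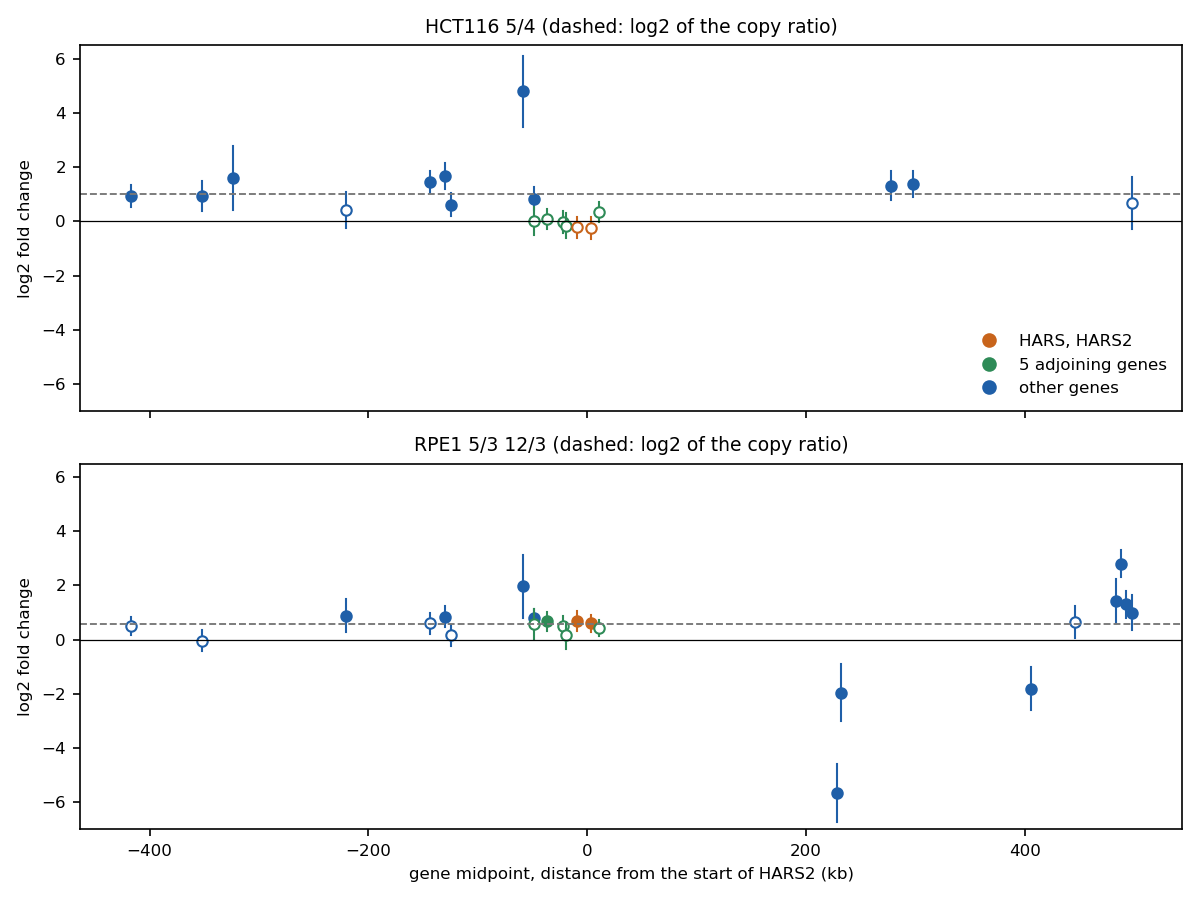
Log2 fold changes with 95% intervals of genes within 500 kb of the start of HARS2, by distance of the gene midpoint in kb, in the 2 lines that gained chromosome 5; filled points are called genes and the dashed line is the log2 copy ratio. HARS and HARS2 are orange, and the 5 adjoining genes, picked after their values were seen, are green. In HCT116 5/4 both sets lie between -0.25 and 0.36, while the other genes (blue) lie at 0.42 or above.

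The 2 members on chromosome 12 were MARS, the cytosolic methionyl enzyme, and YARS2, the mitochondrial tyrosyl enzyme. In RPE1 5/3 12/3, MARS was at 0.40 (SE 0.21) and YARS2 at 0.37 (SE 0.19), with an adjusted p of 0.198 for both, and neither was called. The 686 genes of chromosome 12 had a median of 0.43 in this line, and 26.5% were called higher; 44.8% of them were lower than MARS and 38.9% lower than YARS2. In HCT116 5/4, where chromosome 12 was not gained, MARS was at 0.30 (SE 0.27) and YARS2 at -0.29 (SE 0.25).

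Of the 7 calls in HCT116 5/4, 5 lay outside chromosome 5. Since they were picked as called, their places among neighbouring genes are given as a description only. MARS2 (GRCh37 chr2:198570093-198573119) was at -0.83 where 37 genes within 5 Mb had a median of -0.03, and 2.70% of these were lower. VARS, in a gene-dense region of chromosome 6, was below all but 7.79% of 154 neighbours, and NARS2, on the long arm of chromosome 11, below all but 14.3% of 49. WARS and FARS2 were above 86.2% of 65 and 90.6% of 32 neighbours. WARS shares 272 exon bases with WDR25 on the opposite strand, 5.49% of its exon bases.

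The changes of MARS2 and NARS2 in HCT116 5/4 were below those in either line it was set against. MARS2 had implied means of 440 in HCT116 and 248 in HCT116 5/4, whereas the values were 508 and 519 in the pair of HCT116* and HCT116* 8/3 c7. NARS2 had 562 and 344 in the former pair and 544 and 614 in the latter. The change in HCT116 5/4 was below that in HCT116* 8/3 c7 by 0.86 for MARS2 and 0.88 for NARS2 on the log2 scale, and below that in RPE1 5/3 12/3 by 0.98 and 1.09. All 4 of these differences passed the adjusted p of 0.05. In RPE1 5/3 12/3, NARS2 was at 0.38 (SE 0.19, adjusted p = 0.164), and 0.40 was the median of 483 genes on 11q, the arm that carries it, although that line is not labelled with a gain there. WARS, FARS2 and VARS exceeded or fell short of HCT116* 8/3 c7 by 0.72, 0.74 and -0.66, with adjusted p of 0.0904, 0.0504 and 0.0538, so that a difference between the HCT116 lines was not shown for them. FARS2 lay at the threshold: with fold changes centred on genes outside the gained chromosomes its adjusted p was 0.0433. RARS and TARS differed by 1.15 and 1.02 (adjusted p = 8.44e-05 and 0.00321). In that comparison 4 of 36 members differed, against 18.9% of all genes tested, and 4 of 36 also differed between HCT116 5/4 and RPE1 5/3 12/3, all lower in HCT116 5/4.

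Set by compartment, cytosolic and mitochondrial genes had medians within 0.14 of each other in every line. In HCT116 5/4 the cytosolic median was -0.04 and the mitochondrial median -0.17, with 4 of 20 genes (3 higher, 1 lower) and 3 of 16 genes (1 higher, 2 lower) called. In RPE1 5/3 12/3 the medians were 0.14 and 0.01, with 3 of 20 and 1 of 16 called. In HCT116* 8/3 c7 they were 0.09 and 0.02, and in RPE1* 21/3 they were 0.03 and -0.02. The cytosolic median was thus the higher in each line, by 0.14, 0.13, 0.07 and 0.04. Without the members on the gained chromosomes the difference was 0.01 in HCT116 5/4 (medians -0.09 and -0.09) and 0.14 in RPE1 5/3 12/3 (0.03 and -0.10). The median over all tested genes lay between 0.00 and 0.01 in the 4 lines. The differences between compartments are given as descriptions, since genes are not replicates of a line.

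**Figure D5:**
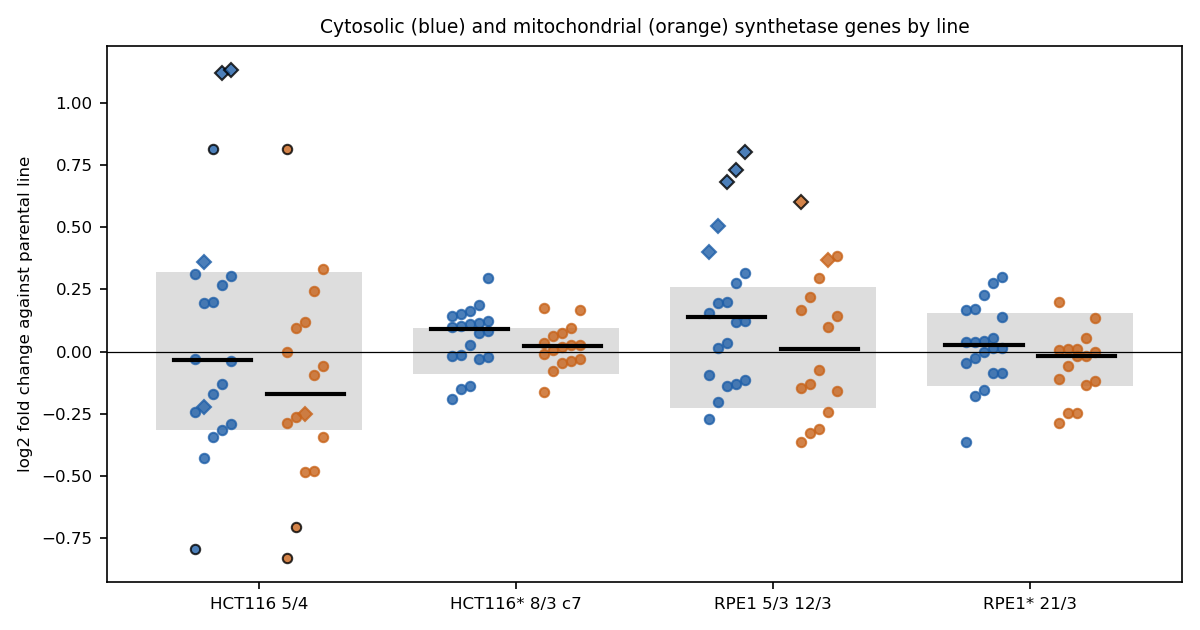
Log2 fold changes of the 20 cytosolic (blue) and 16 mitochondrial (orange) synthetase genes by line; black bars are medians, grey boxes the quartiles of all genes tested, diamonds members on gained chromosomes, and black outlines called genes. The cytosolic bar lies above the mitochondrial bar in each line, by 0.04 to 0.14.

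For 16 amino acids a cytosolic and a mitochondrial enzyme could be set side by side, with EPRS taken for glutamate and for proline. The calls of HCT116 5/4 fell on 7 amino acids, and for 0 of them were the enzymes of both compartments called. In this line 20% of the cytosolic and 18.8% of the mitochondrial members were called, near the 20.6% of all tested genes. At such shares few amino acids would have both enzymes called, so the 0 is a description only. RARS was at 1.12 and RARS2 at -0.09, TARS at 1.13 and TARS2 at -0.34, and WARS at 0.82 and WARS2 at 0.12. MARS2 and NARS2 were low beside MARS at 0.30 and NARS at 0.20. The phenylalanyl enzymes went the other way, with FARS2 at 0.82 and FARSA and FARSB, the subunits of the cytosolic enzyme, at -0.34 (SE 0.24) and -0.43 (SE 0.25), neither of which was called. VARS was at -0.80 and VARS2 at 0.24. Histidine in RPE1 5/3 12/3 was the 1 amino acid with both enzymes called, and its genes lie side by side on the gained chromosome 5.

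Of the 36 members, 10 had a single sign over the 4 lines. CARS, GARS, LARS, MARS, TARS and WARS were above 0 in all 4, and DARS, AARS2, EARS2 and RARS2 were below 0 in all 4. These 10 genes were 27.8% of the members, against 14.2% of 11939 genes that reached a mean of 10 in every table. Cytosolic genes contributed 6 of 6 positive members and mitochondrial genes 3 of 4 negative ones. By compartment, 35% of the cytosolic and 18.8% of the mitochondrial genes had a single sign. Of the positive genes, LARS and TARS lie on chromosome 5, gained in HCT116 5/4 and RPE1 5/3 12/3. MARS lies on chromosome 12, gained in RPE1 5/3 12/3, so these signs were not free of the gains. Most of the single values were within 2 SE of 0: apart from TARS in the 2 lines that gained chromosome 5, WARS in HCT116 5/4, LARS in RPE1 5/3 12/3 and MARS in HCT116* 8/3 c7, none of these genes had an unadjusted p under 0.05 in any line.

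Of the cytosolic genes, 11 are widely described as ATF4 targets (AARS, CARS, EPRS, GARS, IARS, MARS, NARS, SARS, TARS, WARS and YARS). Their median in HCT116 5/4 was 0.20, against -0.29 for the other 9, and with the members on chromosome 5 left out it was 0.20 for 10 genes against -0.33 for 6. The order was the other way in RPE1 5/3 12/3, with medians of 0.12 and 0.15, and without the gained chromosomes they were 0.03 and 0.01. The medians were 0.12 and -0.02 in HCT116* 8/3 c7, where 10 of the 11 and 3 of the 9 lay above 0, and 0.14 and 0.00 in RPE1* 21/3, with no gene of either group called. WARS was the 1 called gene of the ATF4 group outside chromosome 5 in HCT116 5/4, and VARS the 1 of the others. These were 10% of 10 genes and 16.7% of 6, against 18.9% of all tested genes outside chromosome 5. The 8 members of the multisynthetase complex (EPRS, IARS, LARS, MARS, QARS, RARS, KARS and DARS) had medians of -0.09 in HCT116 5/4 and 0.22 in RPE1 5/3 12/3, against 0.08 and 0.09 for the other 12 cytosolic genes. RARS, on chromosome 5, was the 1 called member of the complex in either line, and LARS of the complex also lies on chromosome 5. This was 12.5% of the complex in each line, against 20.6% and 16.6% of all tested genes.

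ATF4 binds with C/EBP partners at composite elements, of which TGATGCAA is a common form. RefSeq start-site windows (250 bases before to 50 after the start, GRCh38.p14) were found for 30 of the 36 members, and not for DARS, LARS, VARS, YARS, AARS2 and VARS2. These letters, read on either strand (TTGCATCA on the other), were present in the windows of AARS, CARS, IARS, MARS, NARS and TARS. That was 6 of 16 cytosolic and 0 of 14 mitochondrial members, and 6 of 10 of the ATF4 group, against 295 of 27305 genes with a window (1.08%). The ATF4 group was chosen as described ATF4 targets, a description that may rest partly on such elements, so its share is no test. The 6 stretches are shown because they mark the members that held the match, each 5′ to 3′ on the strand of its gene with the match in capitals. The match began 187 bases before the start of AARS, 2 before CARS, 13 before IARS and 4 before MARS, and 14 and 2 bases after the first base of NARS and TARS. The stretches lie at chr16:70289675-70289704, chr11:3057407-3057436, chr9:92293692-92293721, chr12:57488053-57488082, chr18:57621804-57621833 and chr5:33440956-33440985, in the order shown.
AARS: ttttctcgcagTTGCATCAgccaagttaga
CARS: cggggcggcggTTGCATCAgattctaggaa
IARS: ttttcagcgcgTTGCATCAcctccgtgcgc
MARS: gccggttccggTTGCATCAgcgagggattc
NARS: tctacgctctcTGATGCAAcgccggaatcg
TARS: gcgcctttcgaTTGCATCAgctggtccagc

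Of these 6 genes, TARS, the 1 on chromosome 5, was the 1 called in HCT116 5/4 and in RPE1 5/3 12/3. Of all tested genes, 20.6% and 16.6% were called in these lines. Of the genes of chromosome 5, 55.4% and 37.4% were called higher. The other 5 lay between -0.17 (IARS) and 0.30 (MARS) in HCT116 5/4. They lay in RPE1 5/3 12/3 between -0.20 (IARS) and 0.40 (MARS, on the gained chromosome 12). A match of these letters describes the window and does not show that a factor was bound.

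Of 24 other genes of the pathway, for scaffold, editing, transamidation, tRNA maturation and elongation functions, 1 was called in HCT116 5/4: AARSD1, an alanyl-tRNA editing protein on chromosome 17, was lower, at -0.63 (SE 0.21, adjusted p = 0.0185). This was 4.17% of the list, against 20.6% of all tested genes, and it was 0% of 23 tested in RPE1 5/3 12/3, against 16.6%. None was called in the other 3 lines by the deposited DESeq2 test, where 2 had an unadjusted p under 0.05 in HCT116* 8/3 c7, 5 in RPE1 5/3 12/3, and 1 in RPE1* 21/3. The adjusted p was under 0.05 with a fold below the threshold for 4 genes in RPE1 5/3 12/3. GATC, a subunit of the mitochondrial amidotransferase, and XPOT, the tRNA export receptor, were at 0.58 and 0.49 on the gained chromosome 12. EEF1E1, a scaffold gene of the multisynthetase complex, and EEF1A1, an elongation factor gene, were at 0.59 and 0.48. Both lie on chromosome 6, which was not gained.

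Genes of the ATF4 amino acid response moved in both directions in the 2 lines that gained chromosome 5. Of 29 tested in HCT116 5/4, 4 were called higher, led by SLC7A11, the cystine transporter (2.68, SE 0.55), CHAC1, a glutathione-degrading enzyme (1.70, SE 0.31), and NUPR1 (1.42, SE 0.53). In the same line 3 were lower, ALDH1L2 (-1.41), PYCR1 of proline synthesis (-0.83) and SHMT2 of mitochondrial one-carbon metabolism (-0.65). Of 30 tested in RPE1 5/3 12/3, 7 were called higher, led by SLC7A11 (1.62, SE 0.20), CEBPB (1.08, SE 0.20) and PHGDH of serine synthesis (1.04, SE 0.25), and 3 lower, SLC7A5 (-1.54), PYCR1 (-0.75) and CBS (-0.69). The called shares were 24.1% of the list in the former line, where 20.6% of all tested genes were called, and 33.3% in the latter, where it was 16.6%. Some of the higher calls lie on a gained chromosome: STC2 on chromosome 5 in both lines, and DDIT3 and SHMT2 on chromosome 12 in RPE1 5/3 12/3. ATF4 mRNA itself was at 0.07 (SE 0.21) in HCT116 5/4 and was higher by 0.64 (SE 0.16, adjusted p = 0.000546) in RPE1 5/3 12/3. In HCT116* 8/3 c7 and RPE1* 21/3, 0 were called by the deposited DESeq2 test, and 3 and 6 had an unadjusted p under 0.05. By the same test EIF4EBP1, on the gained chromosome 8, had an adjusted p of 0.0115 in HCT116* 8/3 c7. Its log2 fold change of 0.53 (SE 0.15) was below the threshold. The 9 cytosolic synthetase genes of the ATF4 group outside the gained chromosomes lay between -0.27 (YARS) and 0.28 (AARS) in RPE1 5/3 12/3. Of these, 0 were called, against 14.7% of all 11428 tested genes outside the gained chromosomes. With 9 genes, 0 calls are not far from that share, and an effect of ATF4 on them was not tested.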

How the data were processed

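RNA of 24 libraries (RNeasy, TruSeq) was sequenced on a HiSeq2500 with 25000000 single reads of 100 bases per library by the study's methods; the reads counted in each library are not given in the sources used here. Per the study's methods and the submitters' processing notes, the authors trimmed reads (cutadapt), aligned them to hg19 with TopHat2 2.0.10, counted them over RefSeq genes with featureCounts 1.4.3 and ran DESeq2 for every aneuploid line and its parental line (version and strand setting not given). The deposited tables hold, per gene, a mean normalized count (signal), a log2 fold change with its SE on the log2 scale, a Wald score, and a p-value with its adjusted value. They are the authors' own comparisons and were the only values used; the count test planned for single libraries was therefore not run.

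Wald scores and Benjamini-Hochberg values recomputed from the deposited columns differed from them by at most 3.66e-07 and 3.26e-06. Genes were called at a mean of 10 or more, an adjusted p under 0.05 and a log2 fold change over 0.6 in size. Implied group means were derived from the mean and the fold change. Differences between 2 lines were tested as a two-sided Wald test of the difference of the log2 fold changes, adjusted over every gene that reached a mean of 10 in both tables, for 3 pairs of lines, and the step was tested on simulated data. Genes were placed by symbol in GENCODE v44 lifted to GRCh37, 18 members by an older symbol; 94.7% to 95.2% of the genes in each table were placed. Python 3.11.15, NumPy 2.4.6, pandas 2.3.3 and SciPy 1.17.1 were used. Values are named for members called in any line, members on a chromosome gained in that line and the extremes of each compartment. Of the pathway lists, called genes are named, at most the 3 largest in each direction. ATF4, XPOT, GATC, EEF1E1, EEF1A1 and uncalled members named beside called ones were added after their values were seen. The members, lists and tests were chosen with earlier results of these data known. Alternatives changed the filter, thresholds, centring, prior, members and transcript length.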

Additional observations from a re-analysis of the deposited data

Results flagged for a closer look

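Changes that differed between 2 lines by the Wald test of the difference, adjusted over all genes, were as follows. Between HCT116 5/4 and RPE1 5/3 12/3, which both gained chromosome 5, the log2 fold change in HCT116 5/4 minus that in RPE1 5/3 12/3 was -0.90 for HARS (95% interval -1.44 to -0.36), -0.85 for HARS2 (-1.36 to -0.34), -0.98 for MARS2 (-1.66 to -0.29) and -1.09 for NARS2 (-1.66 to -0.52). Between HCT116 5/4 and HCT116* 8/3 c7 it was 1.15 for RARS (0.66 to 1.65), 1.02 for TARS (0.46 to 1.58), -0.86 for MARS2 (-1.39 to -0.34) and -0.88 for NARS2 (-1.37 to -0.39). Between RPE1 5/3 12/3 and the line RPE1* 21/3 it was 0.85 for RARS (0.34 to 1.35). MARS2 and NARS2 appear in both comparisons that use HCT116 5/4, which share its libraries. The lines differ in parental line, clone and gained chromosomes, and these cannot be told apart.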

How the results depend on the processing

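No paired analysis was possible because the tables hold 1 fitted value per gene and comparison and no values of single libraries, for which reason no replicate could be left out either. With an absolute log2 fold change above 1, the calls in HCT116 5/4 were 2 (RARS and TARS), of which 2 were cytosolic and 0 mitochondrial, and those in RPE1 5/3 12/3 were 0, with 0 cytosolic and 0 mitochondrial. Centred on genes outside the gained chromosomes, 2 members differed between RPE1 5/3 12/3 and the line RPE1* 21/3 (HARS2 added), and 5 in place of 4 between HCT116 5/4 and HCT116* 8/3 c7 (FARS2 added). With the median transcript length, the cytosolic to mitochondrial ratio was 8.70 in HCT116 5/4, 7.73 in HCT116* 8/3 c7, 7.61 in RPE1 5/3 12/3 and 10.4 in RPE1* 21/3. Without members on the gained chromosomes, the mitochondrial median in RPE1 5/3 12/3 was -0.10 in place of 0.01, a change of sign that was smaller than the median SE of its genes. Among the alternatives run, the other medians, the tested differences and the values of single genes kept their sign, and the other counts stayed within 1.5 times. The deposited fold changes carry a prior that draws them toward 0: with it undone, the members' values were a median of 1.17 times as large in HCT116* 8/3 c7 and 1.01 to 1.05 times in the other lines.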
